A study of Homo sapiens with 11 samples.

Results

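JMJD1C binding was examined around 6 genes of myeloid transcription factors, SPI1, CEBPA, CEBPB, CEBPD, CEBPE and IRF8, in the leukaemia line Kasumi-1. The members are the called JMJD1C peaks whose summit lies no further than 50 kb from the hg19 span of one of these genes. There are 33 such peaks among the 36191 in the deposited list, 9 at SPI1, 7 at CEBPA, 6 at CEBPB, 5 at CEBPE, 4 at IRF8 and 2 at CEBPD. The peaks were chosen by position and not by their height. In all 6 windows the peak with the most tags lay away from the gene's 5′ end, with 328, 416 and 546 tags at SPI1, CEBPA and CEBPE. At CEBPD it did not differ from the peak at the 5′ end beyond counting error. Peaks at the 5′ ends of SPI1, CEBPA, CEBPD and CEBPE held 31 to 149 tags. Of the 6 genes, only IRF8 had no peak at either end or inside its span.

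The series holds 11 libraries from 4 acute myeloid leukaemia lines, of JMJD1C, of the transcription factor LYL1 and of input DNA. One group is used here, the JMJD1C chromatin immunoprecipitation (ChIP-seq) of Kasumi-1, labelled as myeloblasts of acute myeloblastic leukemia and grown in serum-containing medium with no further treatment named. It is 1 library of 1 line, made with a home-made serum whose antigen was the amino-terminal end of JMJD1C. Kasumi-1 carries the RUNX1-RUNX1T1 fusion, so no condition without the fusion is part of the values below. The other 10 libraries, the Kasumi-1 input among them, were not analysed here. With 1 library there is no spread between replicates and no test, and intervals of tags cover counting error only. No expression was measured in this library, so the myeloblast label was not checked against marker genes.

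JMJD1C belongs to a family of JmjC-domain proteins known for removing methyl groups from lysine 9 of histone H3. SPI1 encodes PU.1, an ETS factor that drives monocyte and granulocyte development. The C/EBP proteins are basic leucine zipper factors that bind as dimers: C/EBPα sets off granulocyte commitment, C/EBPε acts in late granulocyte maturation, and C/EBPβ and C/EBPδ act in inflammatory and stress-driven myeloid responses. IRF8 is an interferon regulatory factor that favours monocytes and dendritic cells. The RUNX1-RUNX1T1 fusion is known to lower CEBPA expression and to interfere with PU.1. SPI1 is known to be controlled by its promoter and by a regulatory element upstream, CEBPA by a myeloid enhancer downstream, and mouse Cebpe by an enhancer downstream. Whether any peak below is one of these elements was not tested, because no hg19 map of them was used.

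The sequences before the 5′ ends of CEBPA, CEBPE and CEBPB are shown because JMJD1C peaks covered the surroundings of the first pair of these gene starts but not of the last. They are the 250 bases upstream of the start in RefSeq (build GRCh38.p14), whereas all peak positions are hg19, so the peaks were placed on them only through the gene starts, to 1 kb. Of the 6 genes, 4 had an entry in the promoter table and 3 had one at the start given by its gene table. Capitals mark matches, on either strand, to the words searched.
CEBPA, chr19:33302535-33302784, minus strand: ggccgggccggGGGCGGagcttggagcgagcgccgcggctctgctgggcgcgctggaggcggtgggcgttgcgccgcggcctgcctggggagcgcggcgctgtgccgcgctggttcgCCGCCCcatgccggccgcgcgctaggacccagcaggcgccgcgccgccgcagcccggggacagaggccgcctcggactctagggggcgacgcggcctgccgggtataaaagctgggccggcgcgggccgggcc
CEBPE, chr14:23119256-23119505, minus strand: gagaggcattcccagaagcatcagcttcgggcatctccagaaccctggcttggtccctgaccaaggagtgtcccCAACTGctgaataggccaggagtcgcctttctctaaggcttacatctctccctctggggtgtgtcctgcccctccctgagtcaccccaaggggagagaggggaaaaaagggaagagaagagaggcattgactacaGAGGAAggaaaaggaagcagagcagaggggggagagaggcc
CEBPB, chr20:50190333-50190582, plus strand: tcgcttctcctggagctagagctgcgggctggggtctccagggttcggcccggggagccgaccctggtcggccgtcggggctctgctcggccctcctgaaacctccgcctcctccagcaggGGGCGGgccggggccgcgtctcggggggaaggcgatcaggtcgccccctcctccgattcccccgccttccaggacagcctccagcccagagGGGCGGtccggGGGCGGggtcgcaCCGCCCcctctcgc

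The SP/KLF word GGGCGG, bound by GC-box factors, matched 2 times before CEBPA, at -239 and -133 from the start, and 4 times before CEBPB, at -129, -38, -27 and -14. It is present in 42.6% of the 35116 RefSeq promoters searched over the same 250 bases. Before CEBPE the E-box CANNTG, the kind of word that LYL1 and its partners bind, matched 1 time at -176, as it does at least 1 time in 61.8% of all promoters. The ETS word GAGGAA, found in 23.6% of promoters, matched 1 time before CEBPE at -41. The RUNX word TGTGGT (11.0% of all promoters), the C/EBP word TTNNGNAA (33.2%) and the GATA word AGATAA (9.17%) had no match in the 3 windows. No matches of different words overlapped. G and C made up 81.2% of the CEBPA window, with 41 CpG pairs, 75.6% of the CEBPB window, with 25, and 57.2% of the CEBPE window, with 2, against a median of 58.0% over all promoters. A match describes these letters and does not show binding.

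Depth and the local signal bear on every value. The library held 29330355 tags, of which the authors' caller kept 19897991 after allowing 1 tag per position. Fold enrichment is the authors' ratio of the summit to a background estimated from the 10 kb around the peak in the same library, without input DNA. The expected tags can be solved from a peak's tag number and score, and this background lay between 78.0 and 843 tags per 10 kb for the 33 peaks, with a median of 181 against 133 over the list. It includes the peak's own tags, a median of 24.7% of it for the members and 22.2% over the list, and those of neighbouring peaks. A peak in tag-rich surroundings therefore has a lower fold for the same summit height, but not always for the same number of tags. At CEBPA, peaks of 98 and 101 tags over backgrounds of 189 and 183 had folds of 25.25 and 13.66. Open or repeated DNA can also gather tags, and no input was used to separate such signal from binding.

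The 33 peaks held 3199 tags, unevenly divided among the genes. SPI1 had 1129 tags in peaks (95% exact Poisson interval 1064 to 1197), CEBPA 908 (850 to 969) and CEBPE 729 (677 to 784). CEBPB followed with 236 (207 to 268), and CEBPD with 100 (81.4 to 122) and IRF8 with 97 (78.7 to 118) were lowest. The intervals separate all neighbours in this order except CEBPD and IRF8. The spans of SPI1 and IRF8 are 24 and 23 kb and those of the 4 C/EBP genes 2 kb, so the windows are not equal. The order was the same per 100 kb of window: 910 tags at SPI1, 890 at CEBPA, 715 at CEBPE, 231 at CEBPB, 98.0 at CEBPD and 78.9 at IRF8. On this scale the intervals of SPI1 and CEBPA overlap too, so these genes are not separated.

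**Figure D1:**
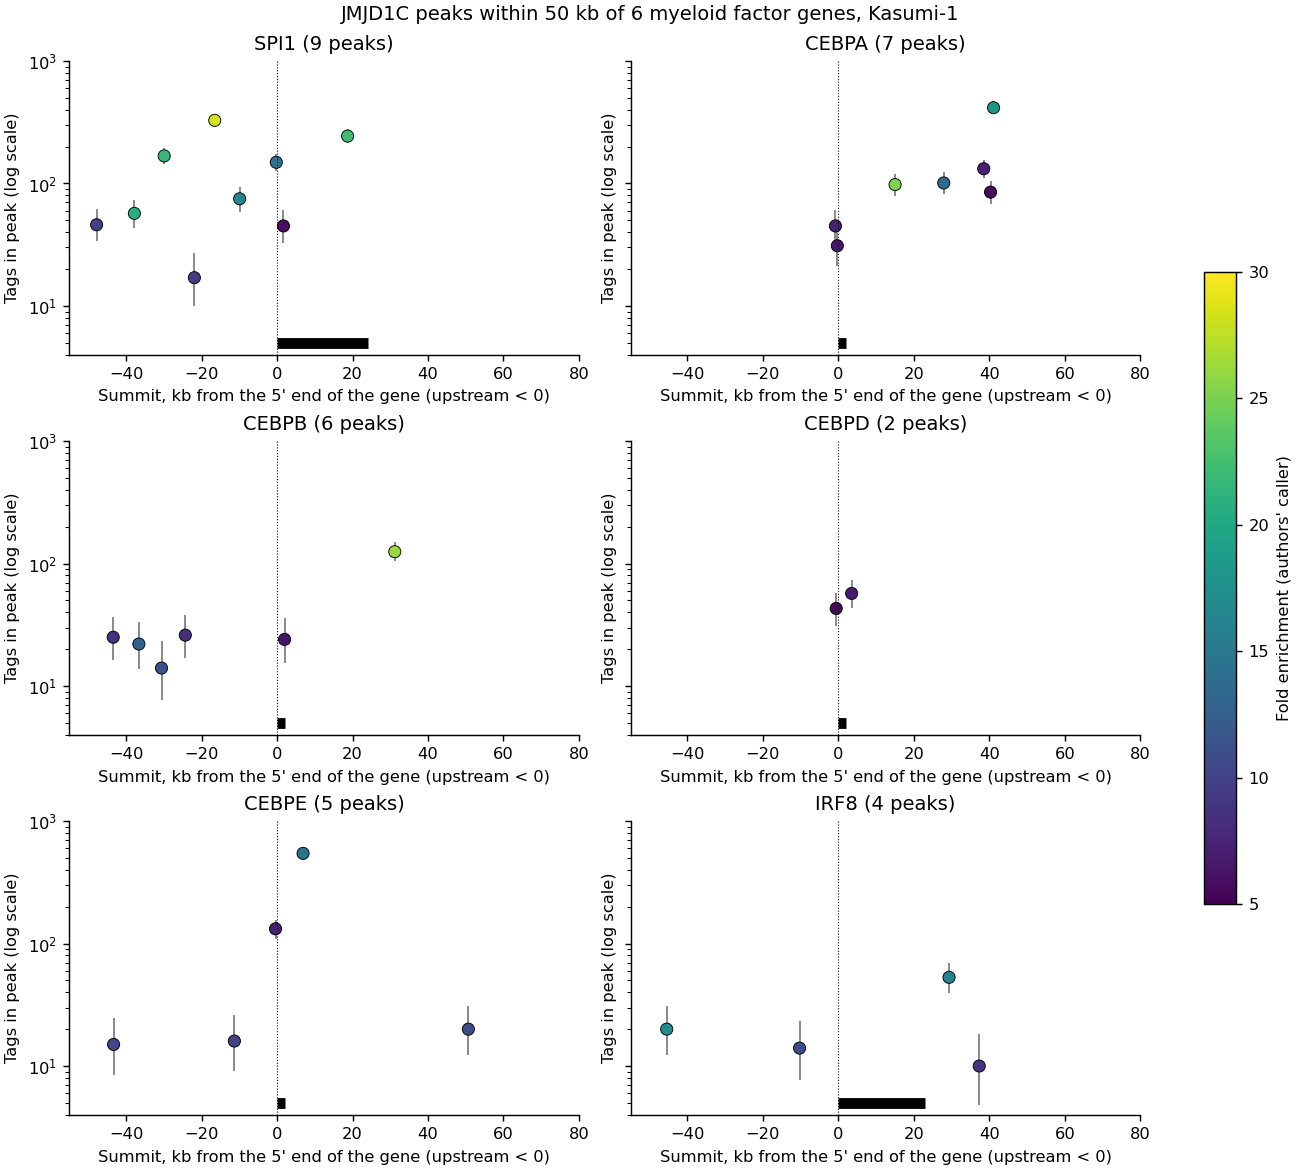
Each panel shows the called peaks in the window of 1 gene, with the summit's distance from the gene's 5′ end in kb (upstream negative) across and the tags in the peak upward on a log scale; bars on points are 95% exact Poisson intervals, colour is the fold and the black bar is the gene span. The tallest points are at 16.5 kb upstream of SPI1 (328 tags), 41.1 kb downstream of the CEBPA start (416 tags) and 6.9 kb downstream of the CEBPE start (546 tags).

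At SPI1, peaks lay in the gene, at its start and upstream, and none lay downstream of it in the window. The strongest was on chromosome 11 from 47416162 to 47417013, with its summit 16.5 kb upstream, 328 tags (293 to 365) and a fold of 28.25. Only 0.765% of all peaks in the list had as many tags and 1.74% as high a fold. This made it the member with the highest fold and score (1609.21, where the score is 10 times the negative log10 of the caller's p). A second tag-rich peak lay inside the gene, from 47380825 to 47382039, with 244 tags (214 to 277), a fold of 22.31 and its summit 18.7 kb downstream of the 5′ end. The third, from 47429455 to 47430102 at 29.9 kb upstream, had 168 tags (144 to 195) and a fold of 21.78. These peaks stood above the one at the gene start, which ran from 47399254 to 47400627 with 149 tags (126 to 175) at a fold of 14.25, although the intervals of the 168 and 149 tags overlap. The upstream peak held 2.20 times the tags of the start peak (95% exact interval 1.81 to 2.69) in a shorter stretch, 385 against 108 tags per kb.

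A smaller SPI1 peak lay just inside the gene, from 47398159 to 47398719, with 45 tags (32.8 to 60.2) at a fold of 5.94. A gap of 534 bp separated it from the start peak, and both together held 194 tags. The other 4 SPI1 peaks were upstream at distances of 9.9, 21.9, 37.8 and 47.8 kb. They had 75, 17, 57 and 46 tags at folds of 16.56, 9.41, 20.53 and 9.78. Upstream of the start, peaks thus followed each other with gaps of 4.8 to 9.5 kb out to the edge of the window. SPI1 was the gene with the most peaks of a fold of at least 20, at 4 of 9, where 9.84% of the whole list reached this fold. Its window was also the longest and held the most peaks.

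At CEBPA the signal was on the downstream side, which held 832 tags in 5 peaks against 76 tags in the 2 peaks at the gene start. The peak with the most tags lay on chromosome 19 from 33751064 to 33752309, 39.1 kb from the gene's 3′ end and 41.1 kb from its 5′ end. It had 416 tags (377 to 458) and a fold of 18.15, and 0.384% of the list had as many tags. Next to it, from 33752312 to 33752975, a peak of 85 tags (67.9 to 105) began after a gap of 2 bp, with a fold of 5.76. The next, from 33754120 to 33754746, had 132 tags (110 to 157) and a fold of 7.18. Together these 3 covered 3683 bp and held 633 tags, 69.7% of the CEBPA tags. Their recovered backgrounds, 764 to 775 tags per 10 kb, were among the 4 highest of the members and include each other's tags, so the folds of 5.76 and 7.18 stand beside a raised background.

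Between this group and the gene were 2 more CEBPA peaks. One, from 33777730 to 33778413 at 13.0 kb from the gene's 3′ end, had 98 tags (79.6 to 119) and a fold of 25.25, which 3.47% of the list reached. The other, from 33764401 to 33765417 at 25.9 kb, had 101 tags (82.3 to 123) and a fold of 13.66. At the gene start a peak from 33793098 to 33793629 with 31 tags (21.1 to 44.0) and one from 33793643 to 33794346 with 45 tags (32.8 to 60.2) were 13 bp apart. Their folds were 6.61 and 7.18, both below the list's median of 10.87. The downstream peak with the most tags held 9.24 times the tags of the larger start peak (6.79 to 12.9). No CEBPA peak lay further upstream in the window, and from the start peaks to the next peak in that direction was a gap of 68.8 kb.

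CEBPE had the member with the most tags. On chromosome 14 from 23581802 to 23583572, 4.9 kb past the 3′ end and 6.9 kb from the 5′ end, 546 tags (501 to 594) were called as 1 peak of 1771 bp, the longest of the 33. It ranked 65 in the list by tags, yet its fold was 14.42, as 26.0% of the list reached. Its own tags made up 64.8% of the recovered background of 843 tags per 10 kb, the highest share and the highest background among the members. The peak at the gene start, from 23588943 to 23590387, had 132 tags (110 to 157) and a fold of 7.22. The ratio of the downstream to the start peak was 4.14 (3.41 to 5.04).

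The remaining CEBPE peaks were small, between 15 and 20 tags. One from 23600127 to 23600462, 11.3 kb upstream, had 16 tags (9.15 to 26.0) and a fold of 9.83. Another from 23632047 to 23632366, 43.3 kb upstream, had 15 tags (8.40 to 24.7) and a fold of 10.1. The last, from 23538103 to 23538519 at 48.7 kb downstream, had 20 tags (12.2 to 30.9) and a fold of 10.86. So 74.9% of the CEBPE tags were in a single peak, a larger share than the 45.8% at CEBPA and the 29.1% at SPI1.

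CEBPB had no peak at its 5′ end. The nearest, on chromosome 20 from 48808772 to 48809240, had its summit at the gene's 3′ end, 2.0 kb from the 5′ end, with 24 tags (15.4 to 35.7) at a fold of 6.28. The strongest lay 29.2 kb downstream, from 48837969 to 48838593, with 125 tags (104 to 149) at a fold of 26.11, which 2.88% of the list reached. It held 53.0% of the CEBPB tags. Upstream, 4 weak peaks lay 24.3, 30.6, 36.6 and 43.4 kb from the gene. The first of them, from 48782517 to 48782998, had 26 tags at a fold of 8.31, and the one at 30.6 kb, from 48776176 to 48776532, had 14 tags at a fold of 11.14. The peak from 48770288 to 48770683 had 22 tags at a fold of 12.53, and the farthest, from 48763287 to 48763767, had 25 tags at a fold of 8.59. These 4 upstream peaks had overlapping counting intervals and could not be ranked by tags.

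The window of CEBPD held the fewest peaks, both close to the gene. On chromosome 8, a peak from 48650944 to 48651780 at the 5′ end had 43 tags (31.1 to 57.9) and a fold of 5.66, the lowest fold of the 33. The other, from 48647369 to 48648192 at 1.5 kb past the 3′ end, had 57 tags (43.2 to 73.9) and a fold of 6.75. Both flank the short gene, and their tag numbers did not differ beyond counting error (ratio 1.33, 0.877 to 2.02). Outside them no peak was called for 221.3 kb on the upstream side and 133.7 kb on the downstream side.

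IRF8 was the only one of the 6 genes with no peak at either end or inside its span. The nearest peak, on chromosome 16 from 85961927 to 85962523, lay 6.3 kb downstream with 53 tags (39.7 to 69.3) at a fold of 16.1. A further one downstream at 14.3 kb, from 85970114 to 85970368, had 10 tags (4.80 to 18.4), the fewest of the members, at a fold of 8.74. On the upstream side, a peak from 85922471 to 85922791 at 10.3 kb had 14 tags (7.65 to 23.5) and a fold of 10.7. A last one from 85887351 to 85887719 at 45.5 kb had 20 tags (12.2 to 30.9) and a fold of 16.84. The list's smallest peaks rest on 9 tags, so binding below such a level in the 39.1 kb between the peaks on both sides of the IRF8 span was not detectable at this depth. The background at these 4 IRF8 peaks was 78.0 to 120 tags per 10 kb, where the caller's minimum is 73.7. The fold of 16.84 came with 20 tags over a background of 81.0 tags per 10 kb. That of 16.1 came with 53 tags over 120, where the list's medians were 30 tags and a background of 133.

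Set beside the whole list, the members did not stand out in fold but a larger share held at least 100 tags. A fold of at least 10 was given to 18 of 33 (54.5%, 95% exact Clopper-Pearson interval 36.4% to 71.9%), against 60.1% of all peaks. Their median fold was 10.70, against 10.87. A fold of at least 20 was given to 6 of 33 (18.2%, 6.98% to 35.5%), against 9.84%, and the interval includes the list's share. At least 100 tags were held by 10 of 33 (30.3%, 15.6% to 48.7%), against 10.1% of all peaks, and the interval lies above the list's share. These 10 were 4 at SPI1, 3 at CEBPA, 2 at CEBPE and 1 at CEBPB. The median member held 46 tags (order-statistic interval 25 to 98) against 30 in the list, which lies inside that interval. Over 1000 bp long were 6 of 33 (18.2%, 6.98% to 35.5%) against 8.29%, a share that the interval again includes. Another peak within 10 kb was found for 25 of 33 (75.8%, 57.7% to 88.9%), against 49.7%. Peaks in 1 window share their surroundings and are not independent, so these shares and their intervals are descriptions.

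**Figure D2:**
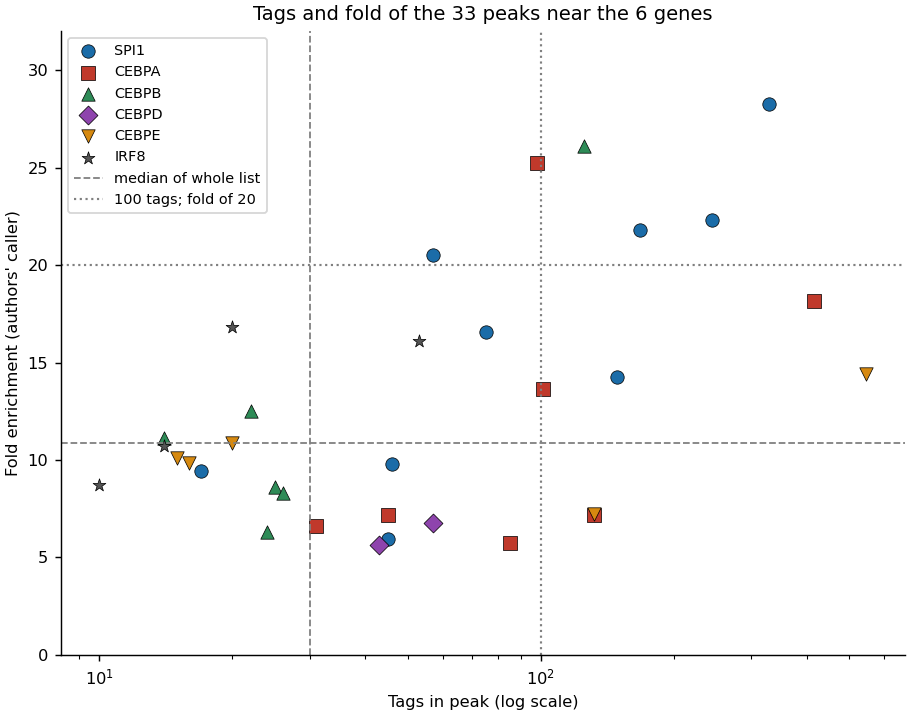
Each point is 1 of the 33 peaks, with its tags across on a log scale and its fold upward; dashed lines are the medians of the whole list (30 tags, fold 10.87) and dotted lines mark 100 tags and a fold of 20. The CEBPE peak of 546 tags has a fold of 14.42, below the CEBPB peak of 125 tags at 26.11, and both CEBPD peaks lie under the list's median fold.

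By position, peaks at the starts of CEBPA, CEBPD and CEBPE had low folds, and the one at SPI1 did not. A peak was counted at a gene start where any of its bases came within 1 kb of the 5′ end, a class set after the values were seen. The 5 such peaks had folds of 5.66 to 14.25 with a median of 7.18, and 1 of them, that of SPI1, reached 10. Of the 26 other peaks with their summit outside the gene span, 16 reached 10, and the folds ran from 5.76 to 28.25 with a median of 11.00. Over the whole list 60.1% of peaks reached 10 and the median fold was 10.87, so the 26 peaks were near the list. The 26 include the CEBPB peak at the gene's 3′ end, whose bases overlap the span although its summit falls just past it. They can also include peaks at the starts of other genes, which were not mapped, so the classes do not compare promoters with distal sites. Tags did not separate the classes: the medians were 45 and 49.5 tags. At least 100 tags were held by 2 of the 5 start peaks, those of SPI1 and CEBPE, by 7 of the 26 and by 10.1% of the list. The 26 peaks held 78.5% of the member tags and the 5 start peaks 12.5%.

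The recovered signal outside the peak moved with this difference in fold, at a median of 202 tags per 10 kb for the start peaks and 111 for the 26. Its part in the lower fold of the start peaks was not tested. Around the individual start peaks were 139 and 149 tags per 10 kb at CEBPA, at folds of 7.18 and 6.61. The values were 202 at SPI1 (fold 14.25), 216 at CEBPD (5.66) and 337 at CEBPE (7.22). A relation of the fold to the outside signal among these 5 peaks was not tested. The 14 upstream peaks had a median of 23.5 tags and the 12 downstream peaks one of 91.5 tags, but 6 of the 14 are of SPI1 and 5 of the 12 of CEBPA. The sides therefore cannot be told apart from the genes. Both peaks in a gene body belong to SPI1.

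**Figure D3:**
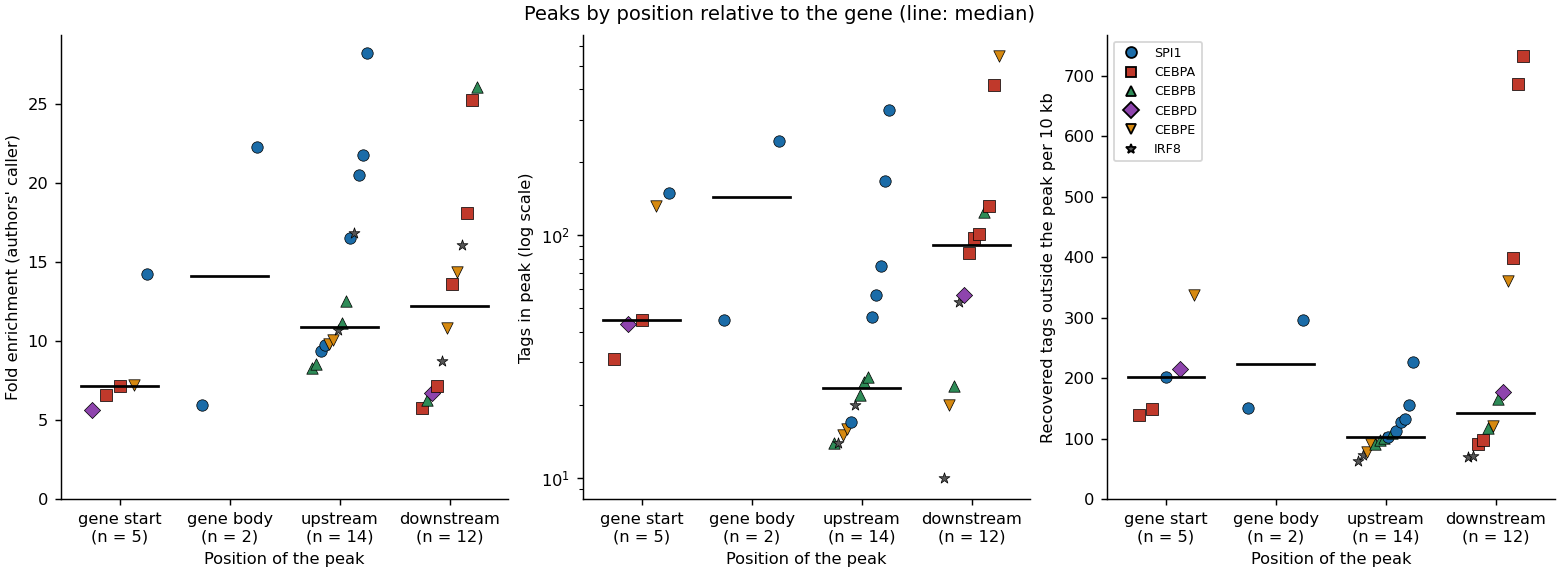
Fold, tags (log scale) and recovered tags outside the peak per 10 kb are plotted for the 33 peaks by position, with 1 symbol per gene and a line at each class median. The gene-start folds lie at 5.66 to 7.22 except that of SPI1 at 14.25, while upstream and downstream peaks reach 28.25 and 26.11.

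Peak density differed between the windows. SPI1 had 7.26 peaks per 100 kb, CEBPA 6.86, CEBPB 5.88 and CEBPE 4.90, whereas IRF8 had 3.25 and CEBPD 1.96. For scale, the autosomes were divided into 27928 tiles of 100 kb, of which 47.4% held a peak, with a mean of 1.26 peaks and 62.6 tags in peaks per tile. As many peaks as at SPI1 were found in 1.64% of tiles, as at CEBPA in 2.74%, as at CEBPB in 4.50% and as at CEBPE in 7.57%. For IRF8 the share was 11.9% and for CEBPD 29.5%. Tiles hold whole numbers of peaks, so these shares count tiles with at least 8 peaks for SPI1, 7 for CEBPA and 4 for IRF8. The densities of SPI1 and IRF8 were thus rounded up the most. The densities of all 6 windows include weak peaks, that of CEBPB most. With a score of at least 100, CEBPB had 1 peak left of 6, CEBPE 2 of 5, IRF8 2 of 4 and CEBPD 1 of 2. SPI1 kept 7 of 9 and CEBPA 5 of 7. The median score over the whole list was 106, just above this limit. By tags the 3 strongest windows stood further out, since 0.412% of tiles held as many tags in peaks as SPI1, 0.444% as many as CEBPA and 0.856% as many as CEBPE. For CEBPB, CEBPD and IRF8 these shares were 7.51%, 18.3% and 21.5%.

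Chromosomes differ in density, and tiles of chromosome 19, which carries CEBPA, had a mean of 3.03 peaks and 158 tags. The means were 1.28 peaks and 61.5 tags on chromosome 11 of SPI1, 1.26 peaks and 56.9 tags on chromosome 14 of CEBPE, and 1.63 peaks and 75.1 tags on chromosome 20 of CEBPB. For IRF8, the 3.25 peaks and 78.9 tags per 100 kb stand beside means of 1.62 peaks and 85.1 tags on chromosome 16. For CEBPD, the 1.96 peaks and 98.0 tags stand beside means of 1 peak and 54.3 tags on chromosome 8, so both its values were above the mean tile of the chromosome. The part of the chromosome in the density of any window was not tested. Tiles cover gene-poor stretches as well, while the windows are centred on genes, and windows around other genes were not analysed here. The windows also reach towards other genes and may contain some, which were not mapped. In the order of the RefSeq gene table, the nearest protein-coding neighbours are MYBPC3 and SLC39A13 for SPI1, and SLC7A10 and CEBPG for CEBPA. They are PEDS1-UBE2V1 and PTPN1 for CEBPB, SPIDR and PRKDC for CEBPD, CIROP and SLC7A8 for CEBPE, and COX4I1 and FOXF1 for IRF8. Distance is the basis on which the peaks are listed with the 6 genes, and no peak was assigned to a target.

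**Figure D4:**
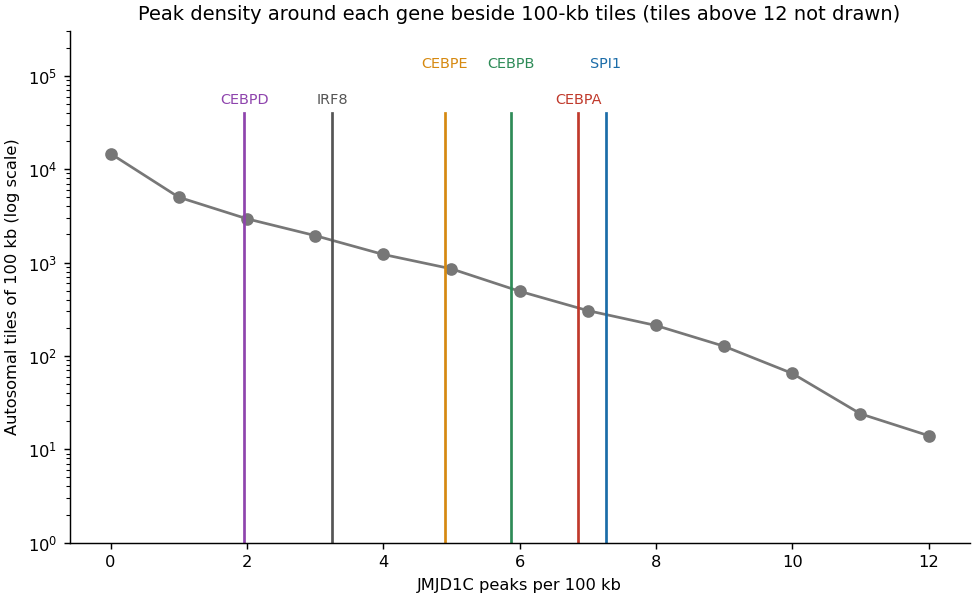
The grey line gives the number of autosomal 100-kb tiles (log scale) that hold 0 to 12 JMJD1C peaks, and the coloured lines mark the peaks per 100 kb in the window of each gene. CEBPD (1.96) and IRF8 (3.25) lie where tiles are common, and SPI1 (7.26) and CEBPA (6.86) where they are rare.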

How the data were processed

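One library was used, the JMJD1C ChIP-seq of Kasumi-1, without a replicate. Per the file headers, the authors ran MACS 1.4.2 without a control, at a p-value cutoff of 1e-05, with 1 tag kept per position, a fragment size of 88 bp and an effective genome of 2.7 Gb. Bowtie2 2.1.0, HOMER and hg19 are named in the submitters' processing notes. The deposited values are tag counts per peak (whole, not normalised), a score (the Poisson p as negative log10, multiplied by 10) and a fold (ratio of summit to local background).

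A summit is start plus summit offset. Gene spans are given to 1 kb, so distances carry that error. Gene strands came from the RefSeq promoter table and, for the 2 genes without an entry, SPI1 and CEBPD, from general knowledge. The background is the Poisson mean that gives the deposited p for more tags than were counted, over the peak length (at least 176 bp). Per 10 kb it differed from whole tags by under 0.05, or from the caller's minimum of 73.7 by under 0.15, for 31 of the 33 members and 96.1% of 35953 list peaks. Simulated data, made with the same Poisson formula, checked the solving of this step only. They cannot show that the caller used this background, and they did not reach the highest backgrounds of the members. Intervals are 95% exact Poisson or Clopper-Pearson; the interval of a ratio of tags comes from the latter. The interval of a median comes from the order of the values. Intervals of tags and of their ratios cover counting error only. Those of shares and medians treat the peaks of this library as independent draws, which they are not. No test was run.

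All peaks are named in windows of up to 6; at SPI1 and CEBPA the nearest 3, the 3 with the most tags and the 2 of highest fold are given in full. The members were chosen, and the alternatives listed, with earlier results of these data known. The neighbour distance of 10 kb, the minimum of 100 tags and the length of 1000 bp were set after seeing the data. Software was SciPy 1.17.1 with NumPy 2.4.6 and pandas 2.3.3 under Python 3.11.15, and Matplotlib 3.10.9 for plots.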

Additional observations from a re-analysis of the deposited data

How the results depend on the processing

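Counting a peak by any base in place of its summit left 33 peaks. With a score of at least 100, 18 were left, where the median score was 129 for the members and 106 for the list. The share with a fold of at least 10 went from 54.5% to 72.2%, the median fold rose to 16.33 and the median tags to 113. These changes follow from dropping weak peaks. The list's values at the same score limit are not given. The filtered member values therefore cannot be set against the unfiltered list, at 60.1%, 10.87 and 30 tags. A fold of at least 10 also left 18 peaks, with a median of 86.5 tags in place of 46. Windows of 25 and 100 kb held 19 and 53 peaks. Joining peaks less than 100 bp apart, chosen after seeing the data, left 31 sites, 5 of them at CEBPA. At a score of at least 100, SPI1 kept 7 peaks, CEBPA 5, CEBPE and IRF8 2 each, and CEBPB and CEBPD 1 each. No CEBPD peak had a fold of at least 10. No paired analysis was possible because a single library is used. Depth limits the weakest members, which rest on 10 to 17 tags.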

Other observations

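Between 50 and 100 kb from the gene spans lay 20 further peaks with 1303 tags in all, against 3199 tags in the 33 peaks nearer by. IRF8, which had few tags nearby, had 6 of them with 233 tags. The one with the most tags lay 69.5 kb upstream, on chromosome 16 from 85863189 to 85863841. It had 133 tags at a fold of 34.32, the only one of the 20 at a fold of 20 or more and higher than the fold of each of the 33. Just past the edge, 50.4 kb downstream of IRF8, a peak from 86006207 to 86006587 had 14 tags and a fold of 9.25.

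CEBPB had 3 peaks in this zone with 502 tags, more than the 236 tags of its window. They were a peak of 254 tags at 80.1 kb upstream with a fold of 18.58, and peaks of 99 and 149 tags at 78.3 and 82.6 kb downstream with folds of 11.58 and 14.43. At SPI1, a peak 85.4 kb downstream had 228 tags and a fold of 18.64, and one 75.9 kb upstream had 15 tags. CEBPA had 6 with 235 tags, of which one of 73 tags at 50.6 kb downstream was just outside the limit and a pair at 70.4 and 71.7 kb upstream, towards CEBPG, had 66 and 48 tags. CEBPE had 3 with 90 tags, and CEBPD had none.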
